A study of Mus musculus with 6 samples.

Results

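The genes described here are 31 genes of the mouse unfolded protein response and of the stress response that runs through the transcription factor ATF4. They were chosen by name, from what is known of their function and with earlier results of these data known. A probe was assigned to a gene only where the platform annotation gave it exactly 1 gene symbol. Of the 31 genes, 28 had such a probe and 27 had a ratio on all 6 arrays, out of 9607 genes measured that way in the whole series. Trib3, Atf6 and Edem1 had no probe in the annotation used here, and Sec61b had a ratio on only some arrays. The genes were sorted into the ATF4-CHOP arm (7 of 8 measured), the sensors (2 of 3), the XBP1 arm (6 of 8) and the ATF6 arm (12 of 12), although several genes of chaperoning and degradation are known to answer to both XBP1 and ATF6.

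RAW 264.7 is an established mouse cell line that resembles macrophages. The treated cells received lipopolysaccharide (LPS), the outer membrane glycolipid of Gram-negative bacteria, at 100 ng/ml together with LPS-binding protein at 100 pM, and the untreated cells received neither. Both were kept for 16 hours, and the labels name no other agent or allele in either group. Each of the 6 arrays carried treated and untreated RNA in 2 colours. Treated RNA was in Cy5 on 3 arrays and in Cy3 on the other 3, with sets numbered 1 to 3 in each orientation. Part of the descriptions spells the line RAW 264.4.

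The measured quantity is the log2 ratio of treated over untreated RNA within an array, so a value of 1 stands for a 2-fold higher signal in treated cells. The direction of the deposited ratios is not stated. They were read as Cy5 over Cy3, because the labels name the sample in Cy5 as the test and that in Cy3 as the control, and every sign below rests on that reading. The arrays of opposite orientation correlated at -0.81 to -0.56 across probes before turning, which holds for either reading of the ratio. The ratios give no signal level, so the genes cannot be ordered by abundance, and fewer cells of a kind cannot be told apart from less RNA per cell. The macrophage markers could likewise be read only as ratios, and their presence in untreated cells could not be checked. Of 10 listed, 7 were measured, 5 rose and 1 fell, where 16.8% of all genes rose and 14.6% fell. Among them were Fcgr1 at 2.13, Adgre1 at 1.79, Cd68 at 0.34 and Csf1r at -0.27. Exact zeros, taken as missing ratios, made up 9.56% to 12.9% of the probes of an array.

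When proteins misfold in the endoplasmic reticulum (ER), the membrane sensors PERK, IRE1 and ATF6 are known to start separate branches of a shared response. PERK phosphorylates the translation factor eIF2α, which slows protein synthesis in general but favours translation of ATF4, an activator of amino acid and redox genes and of CHOP; other eIF2α kinases feed the same route, which is then called the integrated stress response. IRE1 splices Xbp1 mRNA into the form that encodes the active XBP1 factor, and ATF6 is cut in the Golgi to free its own transcription factor. XBP1 and ATF6 then raise chaperones and ER-associated degradation. In macrophages, Toll-like receptor signalling is known to engage parts of this response, IRE1 among them.

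In LPS-treated cells the ATF4-CHOP arm rose as a whole, whereas most chaperones, like 6589 of all 9607 genes, did not pass the test. Of the 27 measured genes 13 rose, 1 fell and 13 did not pass, where 31.4% of all genes changed, 16.8% upward and 14.6% downward. The 13 rises held all 7 ATF4-CHOP genes, 6 of them at least 2-fold, where 3.67% of all genes rose at least 2-fold. Of the other 20 genes 6 rose, 2 of them at least 2-fold, and 1 fell. A gene counts as risen or fallen at an adjusted p under 0.05 from limma fitted to all genes on the 3 set values (each the mean of both orientations), with Benjamini-Hochberg adjustment.

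**Figure D1:**
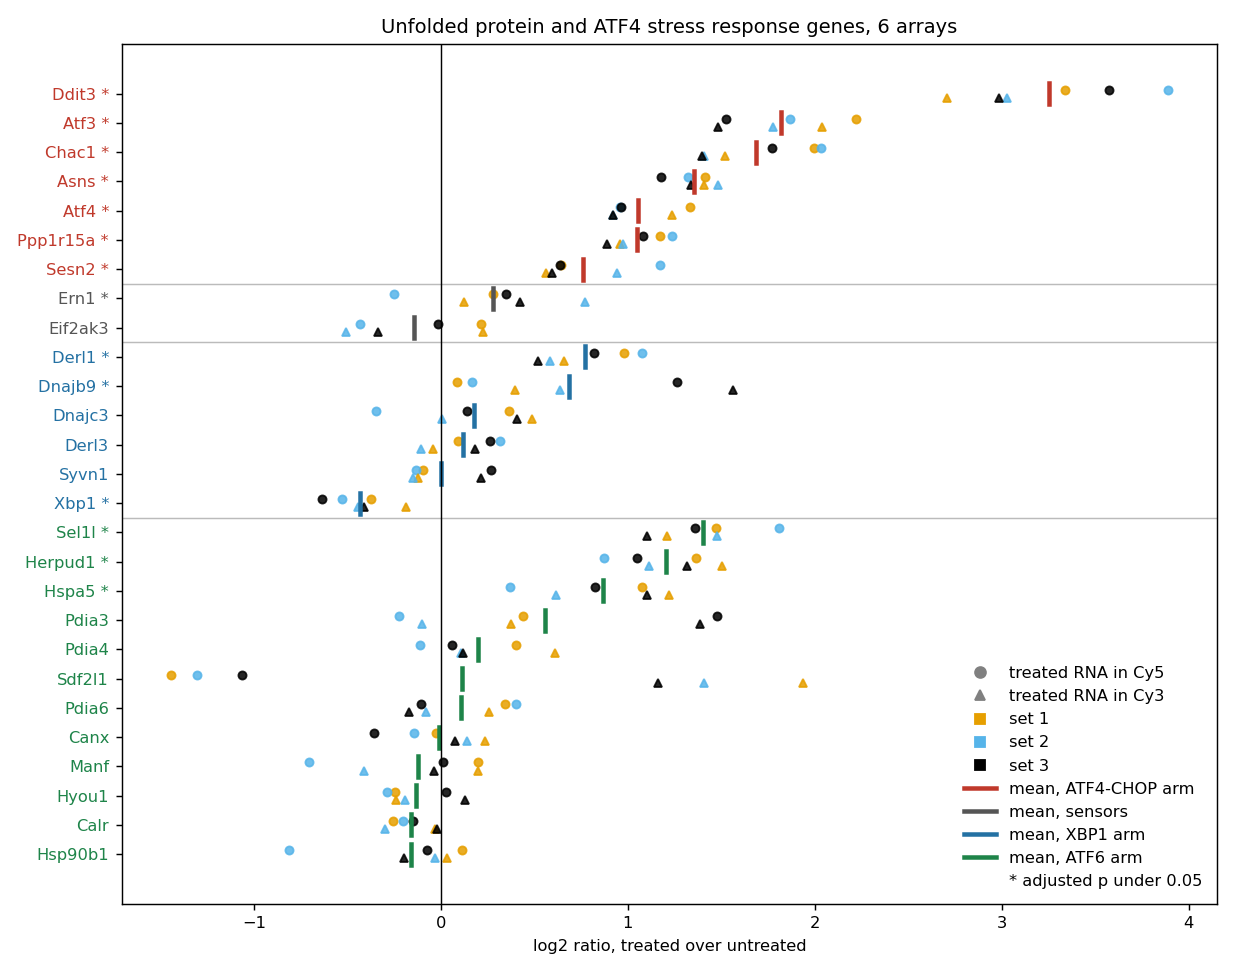
Log2 ratio of treated over untreated (horizontal axis) for the 27 measured genes on the 6 arrays, by arm and by mean. Circles are arrays with treated RNA in Cy5, triangles those with treated RNA in Cy3, colours mark the sets, vertical bars the means and an asterisk an adjusted p under 0.05; all ATF4-CHOP values lie above 0, from 0.56 for Sesn2 to 3.89 for Ddit3, and Sdf2l1 splits by dye.

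The promoter stretches of Chac1, Atf3 and Asns are shown because each holds the letters of the C/EBP-ATF response element (CARE, TGATGNAA), which ATF4 is known to bind as a dimer with C/EBP proteins. They are the 250 bases before the annotated start from RefSeq, build GRCm38.p6, printed 5′ to 3′ on the strand of the gene, with the match in capitals. The Chac1 stretch is chr2:119350992-119351241 on the plus strand, the Atf3 stretch chr1:191183334-191183583 on the minus strand and the Asns stretch chr6:7693210-7693459 on the minus strand. The match runs from -193 to -186 in Chac1 and from -110 to -103 in Atf3, both on the opposite strand, and from -23 to -16 on the gene's own strand in Asns.
Chac1: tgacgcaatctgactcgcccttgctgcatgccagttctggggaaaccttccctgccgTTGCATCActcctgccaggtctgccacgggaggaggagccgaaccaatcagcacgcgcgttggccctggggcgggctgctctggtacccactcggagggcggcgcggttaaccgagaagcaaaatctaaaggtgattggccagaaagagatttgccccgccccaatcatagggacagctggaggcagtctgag
Atf3: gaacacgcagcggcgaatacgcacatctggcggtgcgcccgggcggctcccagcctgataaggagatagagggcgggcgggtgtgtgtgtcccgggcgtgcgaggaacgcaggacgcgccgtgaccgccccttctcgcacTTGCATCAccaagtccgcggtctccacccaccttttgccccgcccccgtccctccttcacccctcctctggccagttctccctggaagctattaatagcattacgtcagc
Asns: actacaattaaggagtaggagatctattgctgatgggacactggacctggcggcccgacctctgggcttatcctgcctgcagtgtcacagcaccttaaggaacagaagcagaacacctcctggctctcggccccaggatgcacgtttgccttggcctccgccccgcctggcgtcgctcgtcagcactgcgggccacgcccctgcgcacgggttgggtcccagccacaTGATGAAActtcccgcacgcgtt

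Atf4, the activator that gives the arm its name, rose 2.08-fold. Its log2 ratio was 1.33, 0.96 and 0.96 in sets 1, 2 and 3 with treated RNA in Cy5, and 1.24, 0.92 and 0.92 with treated RNA in Cy3. All 6 values lay above 0 and set 1 was the highest in both orientations. The mean was 1.05 ± 0.20 (SD, n = 3 sets), with a 95% interval of the fold from 1.78 to 2.42 and an adjusted p of 0.00027 from limma. ATF4 is known to be controlled largely at translation, which an mRNA ratio does not read.

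Ddit3, which encodes CHOP, a transcription factor linked to cell death under prolonged ER stress, gave the highest ratio of the 27 genes and ranked 34 among the rises of all genes. The log2 ratio of Ddit3 was 3.34, 3.89 and 3.58 with treated RNA in Cy5 and 2.71, 3.03 and 2.98 with treated RNA in Cy3, for sets 1, 2 and 3. Every Cy5 array was above every Cy3 array, and set 1 was the lowest in both orientations. The mean of 3.25 ± 0.22 (SD, n = 3) is a 9.53-fold rise, with an interval from 8.13 to 11.2 and an adjusted p of 2.65e-06 from limma.

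Atf3, a bZIP transcription factor of the same pathway that is also known as an LPS-inducible gene, rose 3.53-fold. Log2 ratios of Atf3 were 2.22, 1.87 and 1.52 in sets 1, 2 and 3 with treated RNA in Cy5, against 2.04, 1.77 and 1.48 with treated RNA in Cy3. Set 1 was the highest and set 3 the lowest in both orientations, and all arrays were far above 0. The mean was 1.82 ± 0.31 (SD, n = 3; interval of the fold 2.89 to 4.30, adjusted p = 7.89e-05 from limma).

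Chac1, an enzyme that degrades glutathione and a target of ATF4 and CHOP, rose 3.22-fold. Log2 ratios of Chac1 were 1.99, 2.04 and 1.77 with treated RNA in Cy5 and 1.52, 1.41 and 1.39 with treated RNA in Cy3, for sets 1, 2 and 3. The Cy5 arrays were all above the Cy3 arrays, while the set means spread by only 0.09 (SD, n = 3) around 1.69. The interval of the fold ran from 2.85 to 3.63, with an adjusted p of 1.25e-05 from limma.

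Asns, which makes asparagine and is a classical target of the amino acid response, rose 2.56-fold. The log2 ratio was 1.41, 1.32 and 1.18 with treated RNA in Cy5 and 1.41, 1.48 and 1.34 with treated RNA in Cy3. Asns was the one gene of this arm with the higher mean on the Cy3 arrays, and the orientations overlapped. Its mean was 1.36 ± 0.09 (SD, n = 3), with an interval of the fold from 2.27 to 2.89 and an adjusted p of 3.03e-05 from limma.

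Ppp1r15a encodes GADD34, the phosphatase subunit that removes phosphate from eIF2α and so closes the feedback on translation. The arrays gave log2 ratios of 1.17, 1.23 and 1.08 with treated RNA in Cy5 and 0.96, 0.98 and 0.89 with treated RNA in Cy3. These values held the narrowest spread over sets in the arm, and the mean of 1.05 ± 0.06 (SD, n = 3) is a 2.07-fold rise (interval 1.85 to 2.33, adjusted p = 8.47e-05 from limma). Sesn2 encodes Sestrin 2, a stress-induced inhibitor of mTORC1. It gave 0.64, 1.17 and 0.64 with treated RNA in Cy5 and 0.56, 0.94 and 0.60 with treated RNA in Cy3. Set 2 stood above the other sets in both orientations, and the mean of 0.76 ± 0.26 (SD, n = 3) is a 1.69-fold rise (interval 1.42 to 2.01, adjusted p = 0.00209 from limma), the smallest of the arm.

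Of the 3 sensors 2 were measured, and their mRNA ratios do not read the activity of the proteins. Eif2ak3, which encodes PERK, gave log2 ratios of 0.21, -0.43 and -0.02 with treated RNA in Cy5 and 0.22, -0.51 and -0.34 with treated RNA in Cy3, for sets 1, 2 and 3. Set 1 was above 0 and set 2 below it in both orientations, and the mean of -0.14 ± 0.35 (SD, n = 3) did not pass (adjusted p = 0.482 from limma). The interval of its fold ran from 0.73 to 1.12, so a change of up to about that size in either direction could not be resolved. Ern1, which encodes IRE1α, gave 0.28, -0.25 and 0.35 with treated RNA in Cy5 and 0.12, 0.77 and 0.42 with treated RNA in Cy3. Its mean of 0.28 ± 0.09 (SD, n = 3), a 1.22-fold ratio, passed with an adjusted p of 0.027 from limma, but set 2 held values of both signs. Without set 1, 2 or 3 the adjusted p was 0.0682, 0.0811 and 0.103, so no set could be left out without losing the call. With the 6 arrays taken one by one it was 0.0714, and with the set as a random replicate block 0.226. The Cy5 arrays alone gave an adjusted p of 0.566 and the Cy3 arrays alone 0.0331 from limma. Atf6 was not analysed here.

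The XBP1 arm was mixed. Of its 6 measured genes 2 rose, 1 fell and 3 did not pass, where 16.8% of all genes rose and 14.6% fell. None of the 6 rose 2-fold, and the median log2 ratio was 0.15. Xbp1 itself was the one gene of the 27 that fell. For Xbp1 the log2 ratio was -0.38, -0.53 and -0.64 with treated RNA in Cy5 and -0.19, -0.45 and -0.41 with treated RNA in Cy3, for sets 1, 2 and 3. All 6 arrays lay below 0, set 1 was the closest to it, and the 2 probes gave means of -0.42 and -0.44. The mean of -0.43 ± 0.13 (SD, n = 3) puts treated cells at 0.742 of untreated cells, 1.35-fold lower, with an interval of that ratio from 0.65 to 0.85 and an adjusted p of 0.00661 from limma. The ratio is not known to separate spliced from unspliced Xbp1 mRNA, since the probe sequences were not analysed here.

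Derl1, a channel-like protein of ER-associated degradation, rose 1.71-fold. Its log2 ratio was 0.98, 1.07 and 0.82 with treated RNA in Cy5 and 0.66, 0.58 and 0.52 with treated RNA in Cy3. The Cy5 arrays were all above the Cy3 arrays, and the mean was 0.77 ± 0.09 (SD, n = 3; interval of the fold 1.51 to 1.93, adjusted p = 0.000394 from limma). Dnajb9 encodes ERdj4, a co-chaperone of the ER that XBP1 is known to induce. It gave 0.09, 0.16 and 1.27 with treated RNA in Cy5 and 0.40, 0.64 and 1.57 with treated RNA in Cy3, so that set 3 stood far above the others in both orientations and for both probes (means 0.71 and 0.67). Its mean of 0.69 ± 0.64 (SD, n = 3) passed narrowly, with an adjusted p of 0.0475 from limma. Without set 3 the mean was 0.32 with an adjusted p of 0.0239, and without set 2 it was 0.83 and 0.0704; robust moderation gave an adjusted p of 0.217 and the Cy5 arrays alone 0.171. Only 1.28% of all genes spread at least as far over the sets as Dnajb9.

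The other 3 measured genes of this arm did not pass. Dnajc3 encodes p58IPK, another ER co-chaperone, and had a mean log2 ratio of 0.18 ± 0.31 (SD, n = 3; adjusted p = 0.335), with set means of 0.43, -0.17 and 0.27 for sets 1, 2 and 3. Without set 2 it averaged 0.35 and passed, with an adjusted p of 0.0434 from limma. Derl3, a relative of Derl1, averaged 0.12 ± 0.10 with an adjusted p of 0.31 from limma (n = 3), and Syvn1, the ubiquitin ligase HRD1, averaged -0.00 ± 0.21 with 0.991. The interval of the Syvn1 fold ran from 0.85 to 1.17, which leaves out a change of the size of Sel1l, its partner described next. Sec61b, a subunit of the protein-conducting channel, had 4 exact zeros and ratios of 0.06 on the Cy5 array of set 3 and -0.18 on the Cy3 array of set 2, and was not tested.

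In the ATF6 arm 3 of 12 genes rose and the other 9 did not pass, where 16.8% of all genes rose and 14.6% fell. The median log2 ratio was 0.11. The 3 that rose were Sel1l, Herpud1 and Hspa5, and 2 of these work in degradation. Promoter stretches of Herpud1, Hspa5 and Hsp90b1 are shown because they hold the letters of the ER stress response elements that ATF6 and XBP1 are known to use, while the genes gave different ratios. They are again the 250 bases before the start from RefSeq, build GRCm38.p6, 5′ to 3′ on the strand of the gene, with matches in capitals: chr8:94386179-94386428 on the plus strand for Herpud1, chr2:34771840-34772089 on the plus strand for Hspa5 and chr10:86705445-86705694 on the minus strand for Hsp90b1. In Herpud1 the first capitals are CARE letters on the opposite strand (-112 to -105) and the second the element ERSE-II (ATTGG, 1 base of any kind and CCACG), from -52 to -42. In Hspa5 they are 1 copy of the element ERSE (CCAAT, 9 bases of any kind and CCACG), from -65 to -47. In Hsp90b1 they are ERSE copies at -212 to -194 and, on the opposite strand, at -107 to -89.
Herpud1: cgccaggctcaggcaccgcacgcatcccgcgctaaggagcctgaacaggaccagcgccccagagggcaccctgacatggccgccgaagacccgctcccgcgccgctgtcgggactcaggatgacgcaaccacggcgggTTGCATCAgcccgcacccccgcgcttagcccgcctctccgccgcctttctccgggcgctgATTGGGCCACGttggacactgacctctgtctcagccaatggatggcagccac
Hspa5: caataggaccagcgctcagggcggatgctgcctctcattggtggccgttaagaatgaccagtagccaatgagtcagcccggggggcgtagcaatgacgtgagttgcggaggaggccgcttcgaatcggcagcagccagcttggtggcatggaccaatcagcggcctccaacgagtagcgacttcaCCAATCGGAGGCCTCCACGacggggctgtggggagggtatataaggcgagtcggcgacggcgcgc
Hsp90b1: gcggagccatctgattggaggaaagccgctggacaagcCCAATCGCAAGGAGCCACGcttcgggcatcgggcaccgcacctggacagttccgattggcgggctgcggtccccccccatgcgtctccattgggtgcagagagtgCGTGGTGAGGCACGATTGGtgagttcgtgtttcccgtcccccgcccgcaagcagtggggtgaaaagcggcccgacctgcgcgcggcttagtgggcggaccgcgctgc

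Sel1l, the adaptor that holds the HRD1 ubiquitin ligase complex together, rose 2.65-fold. The Sel1l log2 ratio was 1.47, 1.81 and 1.36 with treated RNA in Cy5 and 1.21, 1.48 and 1.10 with treated RNA in Cy3, for sets 1, 2 and 3. Set 2 was the highest in both orientations, and the 2 probes averaged 1.48 and 1.32. The mean was 1.40 ± 0.21 (SD, n = 3), with an interval of the fold from 2.26 to 3.10 and an adjusted p of 8.9e-05 from limma.

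Herpud1, an ER membrane protein that recruits ubiquilins to the same complex, rose 2.30-fold. The log2 ratio was 1.36, 0.87 and 1.05 with treated RNA in Cy5 and 1.50, 1.11 and 1.32 with treated RNA in Cy3. Set 2 was the lowest in both orientations, and the mean was 1.20 ± 0.22 (SD, n = 3; interval of the fold 1.96 to 2.70, adjusted p = 0.000186 from limma). A second Herpud1 probe, left out for its 1 exact zero, gave -0.10, -0.21 and -0.82 with treated RNA in Cy5 and 0.15 and 0.28 in sets 1 and 3 with treated RNA in Cy3. That probe averaged -0.12 over its 2 complete sets and so did not show the rise, and the rise of Herpud1 rests on 1 probe. With exact zeros kept as ratios both probes enter and the gene averaged 0.54 (adjusted p = 0.00559 from limma), and with both orientations required in only 2 sets it averaged 0.73 (0.00334), still called but under 2-fold.

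Hspa5 encodes BiP, the main Hsp70 chaperone of the ER lumen and the standard readout of the unfolded protein response. Hspa5 gave log2 ratios of 1.07, 0.37 and 0.82 with treated RNA in Cy5 and 1.22, 0.62 and 1.10 with treated RNA in Cy3. All arrays lay above 0, and set 2 was the lowest in both orientations. The mean of 0.87 ± 0.34 (SD, n = 3) is a 1.82-fold rise (interval 1.48 to 2.24, adjusted p = 0.00243 from limma), and without set 2 the mean was 1.05. Hsp90b1, which encodes GRP94, the Hsp90 chaperone that works beside BiP, gave 0.11, -0.81 and -0.07 with treated RNA in Cy5 and 0.03, -0.03 and -0.20 with treated RNA in Cy3. Its arrays lay on both sides of 0, and the mean of -0.16 ± 0.25 (SD, n = 3) did not pass (adjusted p = 0.307 from limma). The interval of its fold, 0.75 to 1.06, does not overlap that of Hspa5; the difference between these genes was not tested.

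The lectin chaperones did not pass either. Calr, which encodes calreticulin, averaged -0.16 ± 0.08 (SD, n = 3, interval of the fold 0.79 to 1.01, adjusted p = 0.151 from limma), with 3 probes at -0.14, -0.05 and -0.29. The probe at -0.29 lay below 0 on all 6 arrays. Taken alone it passed as a fall (adjusted p = 0.0483 from limma over all probes), and the others did not pass. Canx, which encodes calnexin, averaged -0.01 ± 0.12 (interval 0.87 to 1.13, adjusted p = 0.934 from limma). Among the protein disulfide isomerases, Pdia4 averaged 0.20 ± 0.27 with an adjusted p of 0.234 from limma and Pdia6 averaged 0.11 ± 0.23 with 0.489 (SD, n = 3). Pdia3, the isomerase that works with the lectin chaperones, had the widest spread of set means among the 27 genes: 0.44, -0.22 and 1.48 with treated RNA in Cy5 and 0.37, -0.10 and 1.39 with treated RNA in Cy3, for sets 1, 2 and 3. The orientations gave nearly the same value within each set while the sets differed in sign, a spread over sets that 0.48% of all genes reached. Its mean of 0.56 ± 0.81 (SD, n = 3) did not pass (adjusted p = 0.164 from limma). Without set 2 it was 0.92 with an adjusted p of 0.0354, and without set 3 it was 0.12 with 0.541.

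Hyou1, the large Hsp70 relative GRP170 that exchanges nucleotide on BiP, averaged -0.14 ± 0.18 (SD, n = 3; adjusted p = 0.325 from limma), from 1 probe, since its other probe was 0 on all 6 arrays. Manf, a small secreted ER protein that binds BiP, gave 0.20, -0.70 and 0.01 with treated RNA in Cy5 and 0.20, -0.41 and -0.04 with treated RNA in Cy3. Set 2 stood below the other sets, and the mean of -0.12 ± 0.39 (SD, n = 3) did not pass (adjusted p = 0.58 from limma).

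Sdf2l1, an ER protein that acts with the co-chaperone ERdj3, could not be read as a treatment ratio on 1 of its probes. That probe gave -3.22, -2.56 and -2.10 with treated RNA in Cy5 and 3.74, 3.10 and 2.57 with treated RNA in Cy3. Every array thus favoured the Cy3 channel whichever RNA it held. The other probe gave 0.34, -0.05 and -0.03, and 0.13, -0.29 and -0.24. Its mean of -0.02 ± 0.22 (SD, n = 3) did not pass, with an adjusted p of 0.903 from limma. The gene's mean of 0.12 ± 0.11 (SD, n = 3, adjusted p = 0.327 from limma) averages both probes. The gene's dye term of -2.77 was the one among the 27 genes with an adjusted p under 0.05 (0.0013 from limma), where 0.364% of all genes had one. A second case was a Pdia4 probe with 4 exact zeros, left out above, which gave -2.21 and 2.28 on the Cy5 and Cy3 arrays of set 1.

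**Figure D2:**
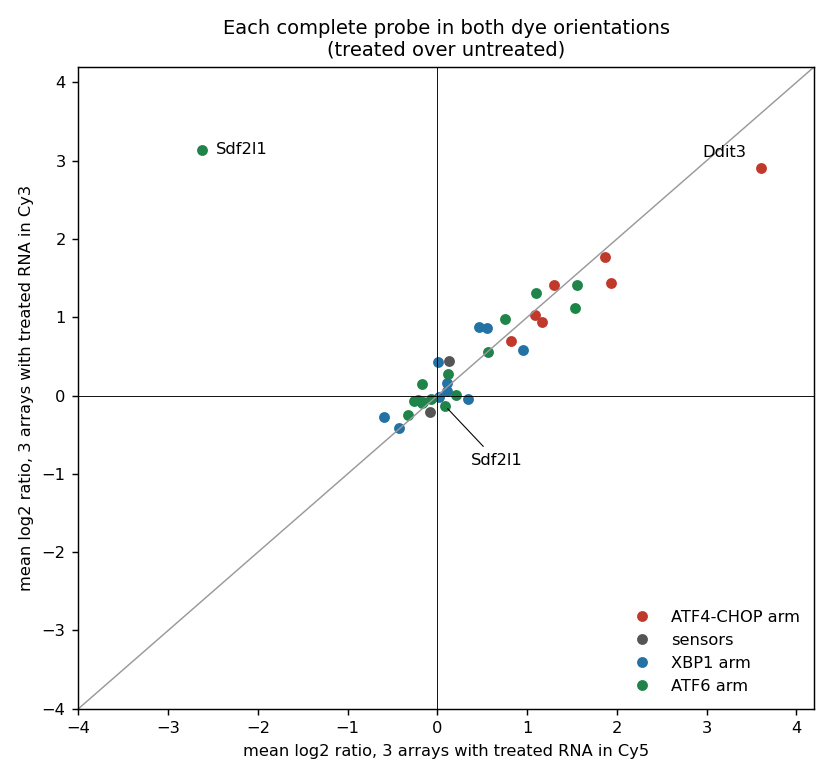
Mean log2 ratio of treated over untreated for each of the 35 complete probes over the 3 arrays where Cy5 held treated RNA (horizontal axis) and the 3 where Cy3 held it (vertical axis); the diagonal marks equal values. Probes lie near the diagonal up to Ddit3 at the top right, except for 1 Sdf2l1 probe at -2.63 and 3.14.

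Set beside each other, the arms had different medians. The ATF4-CHOP arm had a median log2 ratio of 1.36, a fold of 2.56, with set medians of 1.41, 1.40 and 1.26 for sets 1, 2 and 3. The XBP1 arm had set medians of 0.13, -0.02 and 0.26, and the ATF6 arm 0.27, -0.00 and 0.06, while the median over all genes was -0.01. All 7 ATF4-CHOP genes had one sign on all 6 arrays, against 3 of 6 XBP1 genes and 4 of 12 ATF6 genes, where 35.6% of all genes did. The median SD over sets per gene was 0.20 in the ATF4-CHOP arm, 0.17 in the XBP1 arm and 0.22 in the ATF6 arm. The lowest ATF4-CHOP gene, Sesn2 at 0.76, lay above 9 of the 12 genes of the ATF6 arm.

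Of the genes known to answer to both XBP1 and ATF6, those in the ATF6 arm carried part of its count. Without Herpud1, Sel1l and Sdf2l1 the ATF6 arm held 9 genes, of which Hspa5 rose and 8 did not pass, with a median of -0.01. Without Derl3 and Syvn1 the XBP1 arm held 4 genes, of which 2 rose and 1 fell, the same calls as with them. Its median log2 ratio was then 0.43, against 0.15 with them. Set 2 was the lowest set for 7 of 12 ATF6 genes, where 38.4% of all genes were lowest in set 2, and set 1 was the highest for 8 of 12, where 35.2% of all genes were highest in set 1. No test of an arm against another was made, since the genes were chosen with results of these data known.

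**Figure D3:**
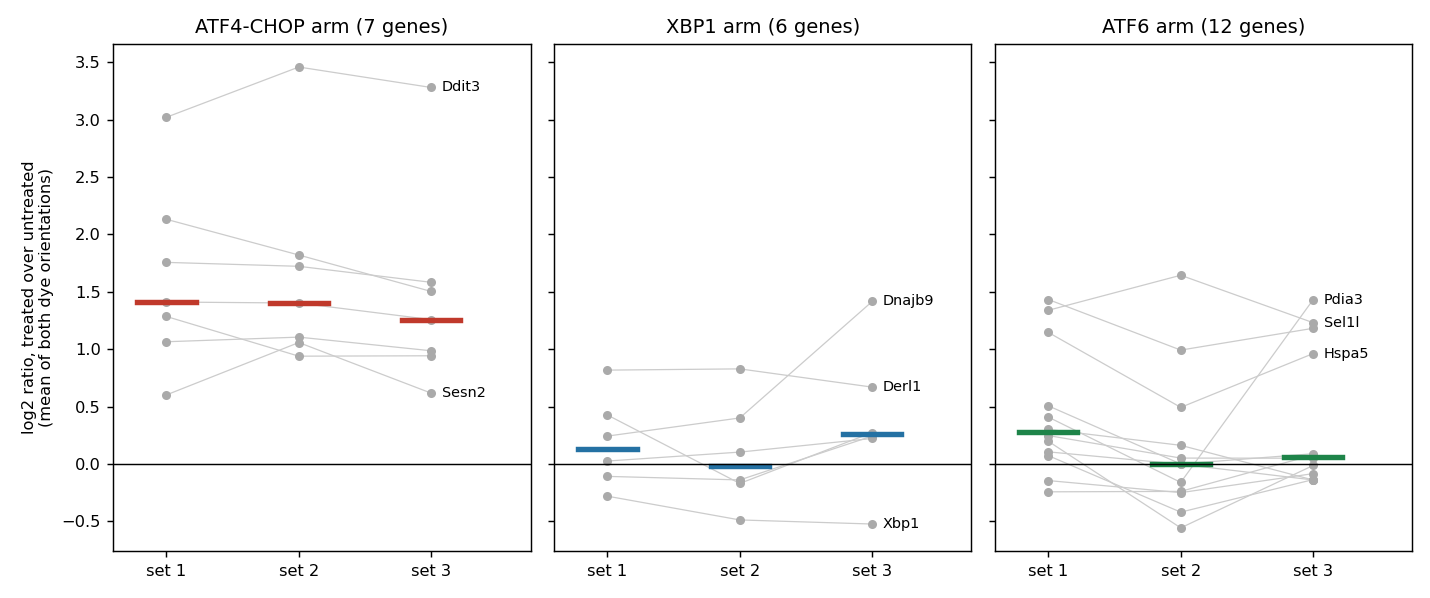
Log2 ratio of treated over untreated in each set (mean of both dye orientations; vertical axis) for the ATF4-CHOP, XBP1 and ATF6 arms; grey points are genes, grey lines join the same gene across sets, which have no order, and coloured bars are set medians. The ATF4-CHOP medians stay between 1.26 and 1.41, those of the other arms between -0.02 and 0.27, and Dnajb9 and Pdia3 stand out in set 3.

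The stretches of 250 bases before the start were searched for the letters of known elements on both strands, in 27 promoters of the 31 genes and in 32851 promoters of the RefSeq table. Atf6, Derl1, Hyou1 and Manf had no entry. CARE letters were in 4 of the 27, those of Chac1, Atf3, Asns and Herpud1, and in 3.45% of all promoters. All 4 genes rose, where 44 of the 205 measured genes with a match rose (21.5%), these 4 included, and 16.8% of all genes rose. Chac1, Atf3 and Asns belong to the ATF4-CHOP arm, whose 7 measured genes all rose, with or without CARE letters. The rise of Herpud1 rests on 1 probe. ERSE letters were in 8 of the 27 (Dnajc3, Derl3, Syvn1, Hspa5, Hsp90b1, Calr, Canx and Pdia6) and in 0.113% of all promoters. Of these 8 genes Hspa5 rose and the other 7 did not pass. Of the 15 measured genes with a match, these 8 included, 2 rose (13.3%).

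ERSE-II letters were in Herpud1 and in 10 promoters of the table, and the cyclic AMP element CRE (TGACGTCA) in Ppp1r15a and in 1.55% of all promoters. The XBP1 element UPRE (TGACGTGG) was in 0 of the 27 and in 0.563% of all promoters. CRE and UPRE share their first 6 letters, and no element contains another in full. These matches describe letters in a short window and are not evidence of binding. Ddit3, Atf4, Sesn2, Ppp1r15a, Ern1, Dnajb9 and Sel1l rose with neither CARE nor ERSE letters in the window, and Derl1, which also rose, had no promoter entry.

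**Figure D4:**
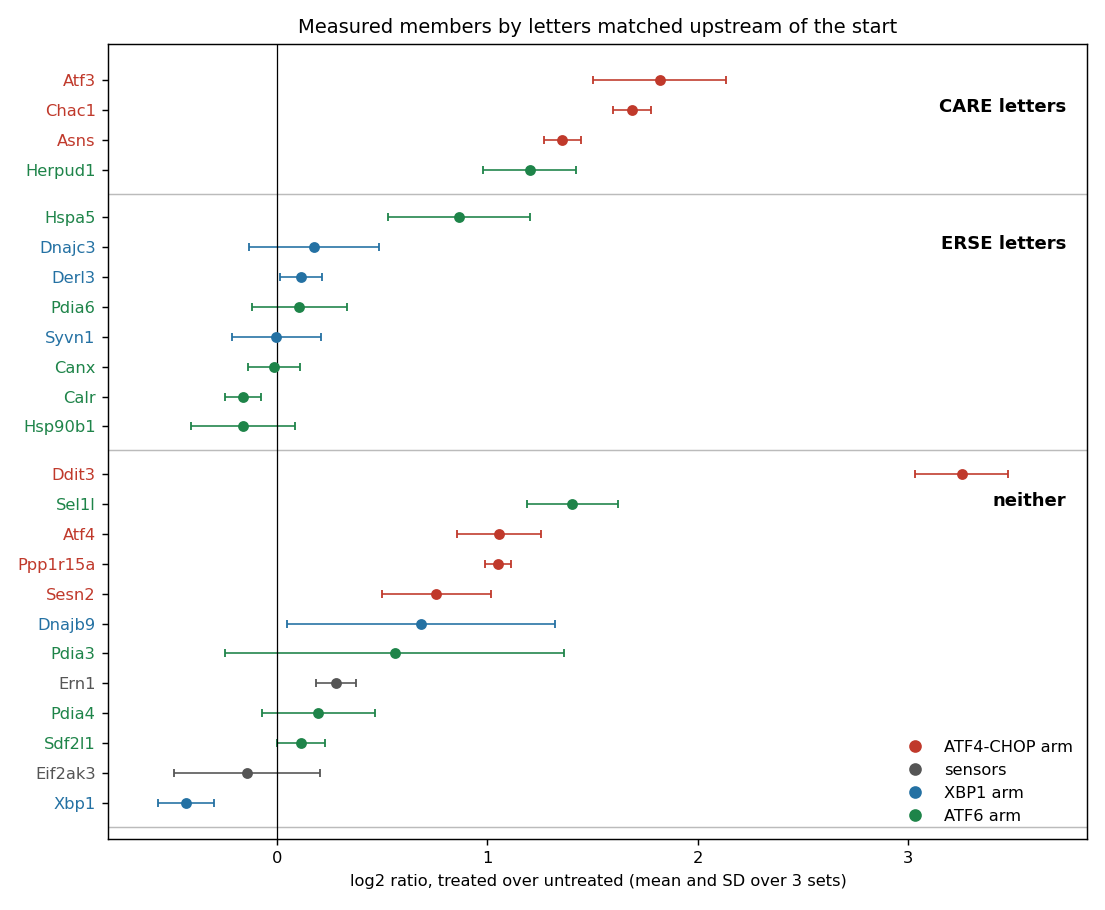
Mean log2 ratio of treated over untreated with the SD over 3 sets (horizontal axis) for the genes with a promoter entry, grouped by CARE letters, ERSE letters or neither in the 250 bases before the start; colours mark the arms. The 4 genes with CARE letters lie between 1.20 and 1.82, and of the 8 with ERSE letters Hspa5 stands apart at 0.87.

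Genes of the same pathways outside the 31 were followed through lists. Of 26 other ATF4 targets and stress-linked regulators 21 were measured, 12 rose and 1 fell, with a median log2 ratio of 0.36. Over all genes 16.8% rose and 14.6% fell. Slc7a11, the cystine transporter subunit, averaged 2.42 ± 0.33, and Nupr1, a small stress-induced chromatin protein, averaged 2.25 ± 0.27 (SD, n = 3 each; adjusted p = 2.5e-05 and 1.89e-05 from limma); with exact zeros kept Slc7a11 averaged 1.41. Slc7a1, the arginine transporter, averaged 0.29 ± 0.15 (adjusted p = 0.0345), but -0.52 on the Cy5 arrays alone and 1.11 on the Cy3 arrays alone, and it lost its call without set 2 or set 3 (adjusted p = 0.136 and 0.104 from limma). Ddit4, the mTORC1 inhibitor REDD1, was the one that fell, at -0.58 ± 0.44 (adjusted p = 0.0273). Its set means were -0.72, -0.09 and -0.93, and it did not pass without set 1 (adjusted p = 0.125) or under robust moderation (0.0575 from limma).

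Genes that supply amino acids and charge tRNA are further known targets of ATF4. Of 20 listed cytosolic aminoacyl-tRNA synthetases 11 were measured, 9 rose and 1 fell, where 16.8% of all genes rose and 14.6% fell. Their median was 0.58. Cars averaged 1.04 ± 0.22 and Nars 1.00 ± 0.18 (SD, n = 3; the enzymes that charge cysteine and asparagine tRNA), while Vars, for valine, averaged -0.34 ± 0.06 and lost its call without set 2 (adjusted p = 0.0512) and on the Cy5 arrays alone (0.203 from limma). Eprs, for glutamate and proline, averaged 0.30 ± 0.06 and lost its call without set 1 (adjusted p = 0.103) and on the Cy5 arrays alone (0.0813 from limma). Among 6 measured genes of serine, proline and one-carbon synthesis 3 rose and 1 fell: Psph, the last enzyme of serine synthesis, averaged 1.07 ± 0.10, Mthfd2, a mitochondrial folate enzyme, 0.72 ± 0.24, Aldh18a1, an enzyme of proline synthesis, 0.56 ± 0.25, and Shmt1, the cytosolic serine hydroxymethyltransferase, -0.51 ± 0.28 (SD, n = 3). Shmt1 lost its call on the Cy5 arrays alone (adjusted p = 0.0689 from limma).

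A list of eIF2, its exchange factor, its kinases and their regulators had 9 measured genes, of which 3 rose and 1 fell. The median of the list was 0.07, and over all genes 16.8% rose and 14.6% fell. The 3 that rose were 1 kinase and 2 regulators. The kinase PKR, encoded by the interferon-induced gene Eif2ak2, averaged 1.01 ± 0.13, and Impact, an inhibitor of the kinase GCN2, averaged 0.59 ± 0.37 (SD, n = 3; adjusted p = 0.000168 and 0.0158 from limma). Impact averaged 0.38 without set 3 and lost its call by its first probe (adjusted p = 0.0788) and on the Cy5 arrays alone (0.134 from limma). Nck1, an adaptor that is known to bring a phosphatase to eIF2, averaged 0.45 ± 0.19 (SD, n = 3; adjusted p = 0.01 from limma). Eif2s3x, a subunit of eIF2, averaged -0.33 ± 0.14 and lost its call without set 1 or set 3 (adjusted p = 0.0877 and 0.0612) and on the Cy5 arrays alone (0.232 from limma). Of the other measured eIF2α kinases, Eif2ak4, which encodes GCN2, averaged -0.07 and did not pass, nor did Eif2ak3.

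Medians of the wider ER lists were 0.04 for folding and 0.16 for degradation, beside -0.01 over all genes. Of 23 other measured folding enzymes and chaperones 4 rose and 2 fell, where 16.8% of all genes rose and 14.6% fell. Qsox1, a thiol oxidase of the secretory pathway, averaged 1.08 ± 0.09 and Fkbp7, a prolyl isomerase, 0.52 ± 0.24, while Erp29 averaged -0.61 ± 0.14 and Mogs, the glucosidase that starts the trimming of N-glycans, -0.66 ± 0.12 (SD, n = 3). With exact zeros kept Erp29 averaged -0.39. Of 14 other measured degradation genes 4 rose and the others did not pass, beside the same 16.8% upward and 14.6% downward over all genes. Ngly1, the cytosolic enzyme that strips N-glycans from retrotranslocated proteins, averaged 1.45 ± 0.27, and Selenos, a partner of the derlins, averaged 0.88 ± 0.23 (SD, n = 3; adjusted p = 0.00014 and 0.00083 from limma). Derl2, another derlin, averaged 0.57 ± 0.03, and Herpud2, a relative of Herpud1, 0.31 ± 0.03 (SD, n = 3). Herpud2 lost its call without set 1 or set 2 (adjusted p = 0.0589 and 0.0614) and on the Cy5 arrays alone (0.131 from limma).

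**Figure D5:**
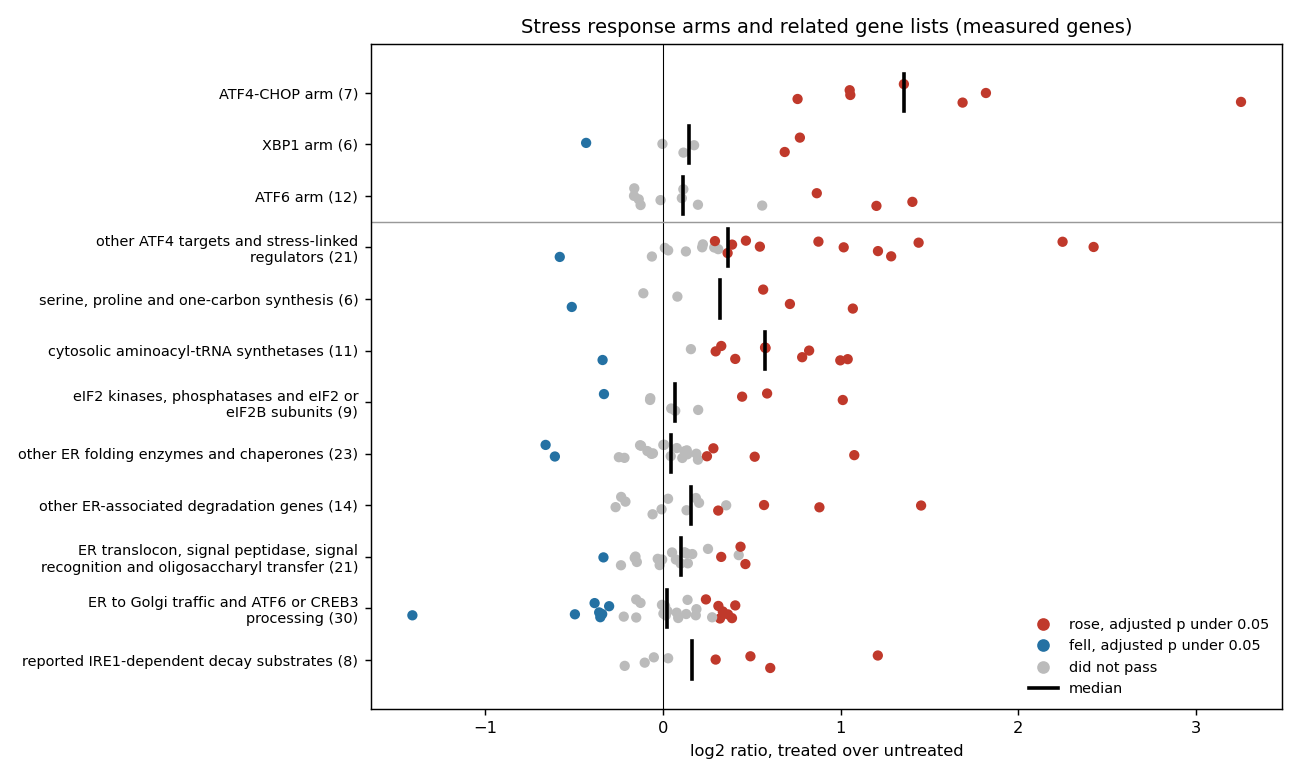
Log2 ratio of treated over untreated (horizontal axis) of each measured gene in the 3 arms and in 9 lists of related genes, with the number measured in brackets; red genes rose, blue genes fell, grey genes did not pass an adjusted p of 0.05, and black bars are medians. The medians are 1.36 for the ATF4-CHOP arm, 0.58 for the tRNA synthetases and 0.36 for other ATF4 targets, and between 0.02 and 0.32 for the remaining arms and lists.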

How the data were processed

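Dual-colour arrays of treated and untreated RAW 264.7 cells were analysed, 3 in each dye orientation. The authors deposited a log2 ratio of both channels per probe and array, a unit inferred from the values. How background was corrected and arrays normalized is not given in the sources used here. Every column had a median of 0, and scanner intensities were not analysed here, so which probes lay near background is unknown. The number of arrays limits the precision.

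Arrays were turned to treated over untreated by the dyes in the labels. Of 16281 probes 13738 named 1 gene symbol. Exact zeros were taken as missing, only probes complete over 6 arrays were kept (35 of the 40 probes of the listed genes), and the probes of a gene were averaged. Both orientations of a set were averaged. The 3 set values were compared with 0 by a two-sided limma 3.58.1 fit (lmFit, eBayes; R 4.3.3), adjusted by Benjamini-Hochberg over 9607 genes, with a threshold of 0.05. The labels do not say whether sets came from separate cultures, so p-values measure the spread between sets, which may be technical. A fold is 2 to the power of the mean log2 ratio, with its 95% interval from the same fit. A dye term came from a limma fit of the 6 arrays. The fit was tested on simulated data. Figures were drawn with Python 3.11.15 and matplotlib 3.10.9.

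The genes, arms and related lists were chosen with earlier results of these data known. All 31 genes are accounted for; from each related list the 2 called genes with the highest and the 2 with the lowest ratio are named, whatever their sign. Promoters were matched by symbol for 27 of the 31 genes in the RefSeq table of build GRCm38.p6. Alternatives changed the handling of zeros, completeness, the probe average, normalization, the replicate unit, variance moderation, the sets or the dye orientation, or left out the genes shared between arms.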

Additional observations from a re-analysis of the deposited data

Results flagged for a closer look

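Sdf2l1 was picked out because its ratio differed between the dye orientations. Its log2 ratio of treated over untreated averaged -1.27 where Cy5 held the treated RNA and 1.50 where Cy3 held it, over 3 arrays each, a difference of -2.77 (adjusted p = 0.0013 from a limma fit with a dye term over all genes). All 3 arrays of one orientation lay below 0 and all 3 of the other above it. The split came from 1 of its 2 probes, which differed by -5.76 between orientations, and the cause was not tested.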

How the results depend on the processing

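Each result was recomputed under 14 alternatives, and the arms also without the genes they share. Of the 14 changed members, 12 kept their call and sign in all of them; Ern1 and Dnajb9 did not. Of 378 member values, 353 kept direction and side of the threshold, 11 lost their call, 4 passed anew, 9 uncalled values changed sign and 1 reversed: Sdf2l1 was -1.27 (adjusted p = 0.00062 from limma) on the Cy5 arrays alone. Over all genes the count of changed genes was 3018 and ranged from 2157 to 3649. It was 2158 to 2990 with a set left out. The members changed ranged from 13 to 15, and the ATF4-CHOP arm kept 7. The sensors fell to 0 changed with a set left out (0 in each case), with 6 arrays with or without a random block, and on the Cy5 arrays alone; the ATF6 arm held 1 without the shared degradation genes. The eIF2 list had 2 changed and the IRE1 decay list 2 on the Cy5 arrays alone. The other degradation genes had 8 with 6 separate arrays and 9 on the Cy3 arrays alone, and the translocon list 7 with 6 separate arrays. The ER to Golgi list had 9 on the Cy5 arrays alone, and 6 to 11 with a set left out. Dad1 was 0.032 by its first probe, and Slc7a1 was -0.52 on the Cy5 arrays alone. Deviations of arrays with one set number correlated at 0.22, 0.08 and 0.57 in sets 1, 2 and 3, and the Cy5 array of set 2 correlated best with the Cy3 array of set 1 (0.21), so the numbers are not shown to pair the arrays. With no replicate block 3649 genes and 13 members changed, and with the set as a random replicate block (correlation 0.39) 3088 genes changed. Without intensities, the limit set by signal over background is unknown.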

Other observations

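A further list held genes that carry proteins into the ER. Of 21 measured genes of the translocon, signal peptidase, signal recognition and oligosaccharyl transfer 3 rose and 1 fell, where 31.4% of all genes changed. The median log2 ratio of the list was 0.10. With the 6 arrays taken as separate, 7 of the 21 changed, where 3649 of all 9607 genes did. Srpr, the signal recognition particle receptor, averaged 0.46 ± 0.20, Spcs3, a signal peptidase subunit, 0.44 ± 0.09, Sec11c, a catalytic subunit of the same complex, 0.33 ± 0.03, and Dad1, a subunit of the oligosaccharyltransferase, -0.33 ± 0.13 (SD, n = 3). Dad1 was 0.032 by its first probe (adjusted p = 0.857), so its direction turned there, and it lost its call without set 2 (0.0828) and on the Cy5 arrays alone (0.119 from limma). Sec11c lost its call without set 1 (adjusted p = 0.0682) and on the Cy3 arrays alone (0.295 from limma).

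Of 30 measured genes of ER to Golgi traffic and of the processing of ATF6 and CREB3 factors 7 rose and 7 fell. Over all genes 16.8% rose and 14.6% fell, and the median of the list was 0.02. The cargo receptor subunits Mcfd2 and Lman1 averaged 0.41 ± 0.04 and 0.39 ± 0.06, while Creb3l1, an ER-bound transcription factor, averaged -0.49 ± 0.17 and Lman2, a lectin of the early secretory pathway, averaged -1.41 ± 0.15 (SD, n = 3), a 2.65-fold lower signal in treated cells (adjusted p = 4.7e-05 from limma). Creb3l1 averaged -0.29 with exact zeros kept, and Mcfd2 lost its call on the Cy3 arrays alone (adjusted p = 0.0505 from limma). Without set 2 the count for this list was 6 of 30.

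Of 10 mRNAs reported elsewhere as cut by IRE1, 8 were measured. Of these 4 rose and the other 4 did not pass, where 16.8% of all genes rose and 14.6% fell, with a median of 0.16. Tapbp, the tapasin of peptide loading on MHC class I, averaged 1.21 ± 0.22 and Hgsnat, a lysosomal acetyltransferase, 0.60 ± 0.08 (SD, n = 3). Pmp22, a membrane protein of myelin, averaged 0.49 ± 0.21 and lost its call on the Cy5 arrays alone (adjusted p = 0.0538 from limma). Itgb2, the integrin β2 chain of leukocytes, averaged 0.30 ± 0.18 (adjusted p = 0.0433) and lost its call in 6 alternatives, with adjusted p between 0.0544 and 0.188 from limma. These are steady-state ratios and do not read decay.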
